A study of Homo sapiens with 6 samples.

Results

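The genes described are those for the proteins of the mitochondrial ribosome, the MRPL genes of its large subunit and the MRPS genes of its small subunit. They were taken by symbol, as MRPL or MRPS followed by a number and at most 1 letter A, B or C, with at least 10 counts over the 6 samples together. Of 76 symbols that matched, 75 reached the minimum, 46 of the large and 29 of the small subunit, among 56638 gene symbols in the data. MRPL30 fell outside it with 3 counts, all in 1 WT sample, and MRPS24 was the member nearest to it with 49 counts. RNA-seq was done on HCT116 cells, a human colorectal cancer cell line, as 3 samples of WT cells and 3 of METTL3-KO cells, all at passage 16-19 and grown in the same medium. METTL3 is the catalytic subunit of the enzyme complex that places m6A on mRNA, and it was disrupted with a lentiviral CRISPR/Cas9 system. The labels name these samples METTL3-KO and the study's methods describe that line as 1 clone, so an effect of the knockout and a trait of that clone cannot be told apart. The deposited files call the same samples SiM3, a name that no source used here explains. It could be read as an siRNA against METTL3, which the study also used in HCT116 cells. The labels were followed, and which treatment these samples had cannot be told from that name. Nothing in the sources says that the 3 samples of a group came from separate cultures, so the p-values measure only the spread between these samples.

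The mitochondrial ribosome translates the few mRNAs encoded by mitochondrial DNA, all of them for subunits of the oxidative phosphorylation complexes. Its rRNAs are transcribed inside the organelle, while its proteins are encoded in the nucleus, made in the cytosol and imported. Some of these proteins have counterparts in bacterial ribosomes and others are found only in mitochondria.

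METTL3 itself was counted 841, 682 and 623 times in WT samples 1, 2 and 3 and 219, 169 and 162 times in the METTL3-KO samples (log2 fold change -2.04, SE 0.0906, adjusted p = 1.6e-07). The samples held 20936091 to 30142144 counts on genes, of which the 75 members took between 0.380% and 0.447%. Replicates 1 and 2 of a group were close to each other, while replicate 3 stood apart in both groups. The mean chi-square per gene was 2.58 between WT replicates 1 and 2, and 23.1 and 23.0 between these and WT replicate 3. In METTL3-KO it was 2.34 between replicates 1 and 2 and at least 8.32 against replicate 3. Changes of named genes past the test that moved by more than 1.5 times without replicate 3 of both groups are given with and without it. All 6 epithelial markers were expressed, from a mean of 282 CPM (counts scaled to a common library size) for VIL1 in WT cells upwards, and 4 of them were higher in METTL3-KO cells. Of the markers of other cell types, COL1A2 and PECAM1 had 0 counts, PTPRC had at most 1 per sample and VIM at most 6, while COL1A1 stood at 5.42 CPM in WT cells and at 6.99 CPM with METTL3 knocked out.

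Most mitoribosomal transcripts did not pass the test between METTL3-KO and WT cells, and those that passed went in both directions. By edgeR's quasi-likelihood test, with an adjusted p under 0.05 over all genes tested, 9 of 75 members differed (12%), 7 lower and 2 higher in METTL3-KO. Changes are given on the log2 scale, METTL3-KO against WT, with their standard error (SE). Over all 22452 genes tested the share was 26.5%, with 13.2% lower and 13.3% higher, and among the 10378 well-expressed genes, those whose mean log2 CPM was over 3, it was 40.9%. The members lower in METTL3-KO were MRPL39, MRPL10, MRPL38, MRPS2, MRPL42, MRPS16 and MRPS25, and those higher were MRPS34 and MRPL45. The large subunit had 4 lower and 1 higher of 46, with a median log2 fold change of -0.03. The small subunit had 3 lower and 1 higher of 29, with a median of 0.03, beside a median of -0.02 over all genes tested. These counts depended strongly on replicate 3, as described further on. They also depended on the filter, since with no filter beyond 1 count 17 of 75 members were called (22.7%), beside 22.3% of all genes in that fit. In bulk RNA, fewer cells that carry a transcript and fewer copies per cell cannot be told apart.

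**Figure D1:**
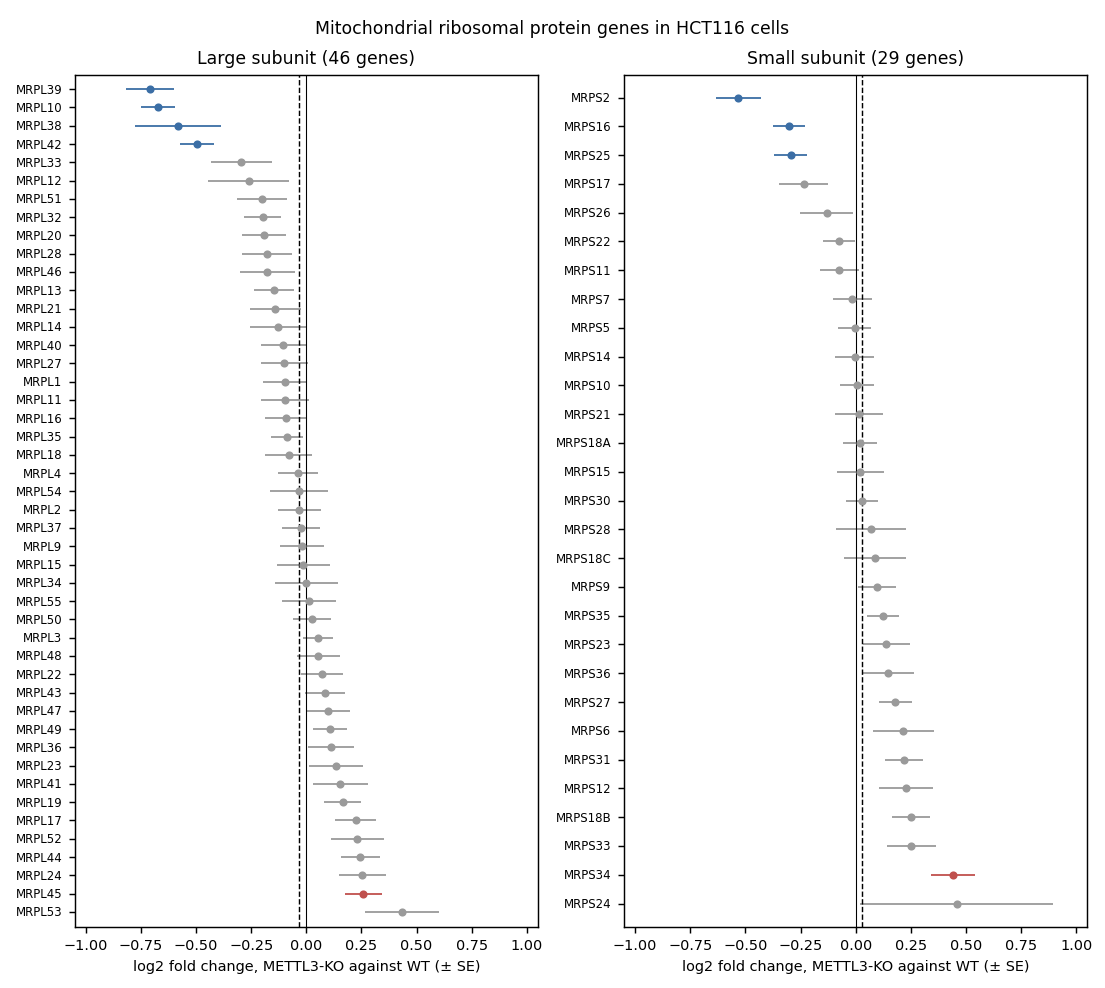
Log2 fold change of METTL3-KO against WT for each of the 46 large-subunit genes (left) and 29 small-subunit genes (right), with bars of ± 1 SE, blue for lower and red for higher at an adjusted p under 0.05, and a dashed line at the subunit's median. The points run from -0.71 (MRPL39) to 0.46 (MRPS24), and 66 of 75 are grey.

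MRPL10 is the counterpart of the bacterial protein at the base of the ribosomal stalk, where translation factors dock. Its level was 61.4, 57.9 and 53.7 CPM in WT samples and 36.3, 36.3 and 36.2 CPM in METTL3-KO samples. The groups did not overlap, and the METTL3-KO values were nearly identical. The fitted change was -0.67 on the log2 scale (SE 0.0776, adjusted p = 7.4e-05). The gene lies at chr17:45900638-45908907 on GRCh37, and none of its exon bases is shared with another annotated gene.

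MRPL39, MRPL38 and MRPL42 are large-subunit proteins with no bacterial counterpart. MRPL39 (chr21:26957968-26979829, GRCh37) stood at 21.9, 24.2 and 19.1 CPM in WT and at 12.2, 13.6 and 14.2 CPM in METTL3-KO samples. The groups were well apart, with the largest fitted decrease of any member, -0.71 on the log2 scale (SE 0.108, adjusted p = 0.00049). MRPL42 (chr12:93861290-93909990, GRCh37) stood at 69.3, 61.3 and 64.1 CPM in WT and at 45.8, 44.9 and 47.3 CPM in METTL3-KO samples. Again the groups did not overlap, and the change was -0.50 (SE 0.0763, adjusted p = 0.00052).

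MRPL38 was the weakest of the calls. It was counted 90, 85 and 62 times in WT and 61, 40 and 66 times in METTL3-KO samples, which is 3.28, 3.76 and 2.91 against 2.02, 1.82 and 2.81 CPM. The highest METTL3-KO sample, replicate 3, was just under the lowest WT sample, also replicate 3. The fitted change was -0.58 (SE 0.194, adjusted p = 0.044), and the adjusted p was 0.067 with DESeq2. The call was lost without WT replicate 1 (adjusted p = 0.095), WT replicate 2 (0.15), METTL3-KO replicate 1 (0.15) or METTL3-KO replicate 2 (0.16), and the change was -0.86 without replicate 3 of both groups. Its gene (chr17:73894725-73901174, GRCh37) shares 45.1% of its exon bases with other genes annotated in GENCODE v44. The authors' counting left out reads that fit more than 1 gene of the annotation it used, which may differ.

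MRPL45, the only large-subunit member called higher, encodes a protein near the exit of the peptide tunnel that faces the inner membrane. It stood at 171, 178 and 149 CPM in WT and at 197, 188 and 210 CPM in METTL3-KO samples, with no overlap. The fitted change was 0.26 (SE 0.0826, adjusted p = 0.037), and 0.14 (adjusted p = 0.0034) without replicate 3 of both groups. The call was lost without any 1 of WT replicate 1 (adjusted p = 0.072) and METTL3-KO replicates 1 (0.097), 2 (0.066) and 3 (0.12). The gene lies at chr17:36452989-36479100 on GRCh37.

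**Figure D2:**
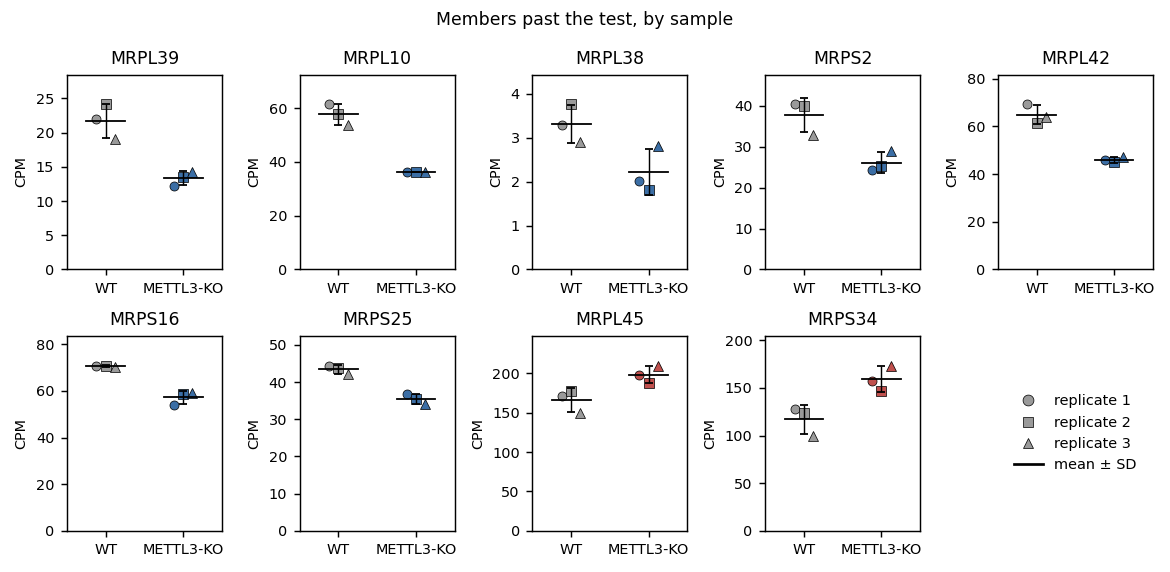
CPM in each sample of the 9 members with an adjusted p under 0.05, WT in grey and METTL3-KO in blue (lower) or red (higher), with a marker shape for each replicate number and lines for the mean ± SD (n = 3 per group). In all 9 panels the groups do not overlap, MRPL38 being the closest, at 2.81 against 2.91 CPM.

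In the small subunit, MRPS2 and MRPS16 have bacterial counterparts, and MRPS25 and MRPS34 do not. MRPS2 (chr9:138391830-138396519, GRCh37) stood at 40.4, 39.9 and 32.9 CPM in WT and at 24.2, 25.3 and 28.9 CPM in METTL3-KO samples. Replicate 3 of each group was the one nearest to the other group, and the groups did not overlap. The fitted change was -0.53 (SE 0.103, adjusted p = 0.0023), and -0.70 without replicate 3 of both groups. MRPS16 (chr10:75008601-75012451, GRCh37) stood at 70.9, 70.9 and 70.3 CPM in WT and at 54.1, 58.9 and 59.1 CPM in METTL3-KO samples, a change of -0.30 (SE 0.0720, adjusted p = 0.0084). MRPS25 (chr3:15051118-15106846, GRCh37) stood at 44.4, 43.9 and 42.2 CPM in WT and at 36.9, 35.4 and 34.1 CPM in METTL3-KO samples, a change of -0.29 (SE 0.0749, adjusted p = 0.012). Both decreases were under 1.5-fold. MRPS16 lost its call without METTL3-KO replicate 1 (adjusted p = 0.061), and MRPS25 without WT replicate 1 (0.053), WT replicate 2 (0.054) or METTL3-KO replicate 2 (0.058).

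MRPS34 was the member with the largest called increase. It stood at 128, 123 and 100 CPM in WT and at 158, 147 and 174 CPM in METTL3-KO samples. The fitted change was 0.44 (SE 0.0998, adjusted p = 0.0060), and 0.28 (adjusted p = 6.2e-07) without replicate 3 of both groups. Its gene (chr16:1821891-1823151, GRCh37) shares 31.2% of its exon bases with EME2. All 4 small-subunit genes called share at least 10% of their exon bases with another annotated gene, and among the 16 small-subunit members below that share none was called, at a median log2 fold change of 0.13. Without replicate 3 of both groups, 6 of those 16 were called (37.5%), beside 44.1% of all genes tested.

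The promoters of these genes were read because many nuclear genes for mitochondrial proteins carry sites for NRF1, for ETS-family factors such as GABPA, and for YY1. RefSeq promoter windows of GRCh38.p14, 250 bases before to 50 after the start of the gene, matched 66 of the 75 members. The words GCGCATGCG for NRF1, CCGGAAG for ETS factors and ATGGCGG for YY1, none of which holds another, were searched on both strands. The ETS word was found in 27 of 66 members (40.9%), beside 21.2% of the 7666 windows of well-expressed genes and 10.7% of all 27305 windows. The YY1 word was found in 23 (34.8%), beside 11.5% and 5.72%, and the NRF1 word in 3 (4.55%), beside 4.07% and 2.10%. Of the 9 genes called, 8 had a window, and 3 of these held the ETS word, 3 the YY1 word and 0 the NRF1 word. The YY1 word lay 9, 11 and 10 bases after the start of the gene in MRPL38, MRPL42 and MRPS34, which were called. It lay before the start in others, such as MRPL32 and MRPL47. Bases after the start are transcribed, and whether these words are part of the coding sequence was not tested. A match is a description of the letters and not a site shown to be bound.

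The stretches of 30 bases around the matches of the called genes are shown to place each word beside the change of its gene, 5′ to 3′ on the gene's strand, with the match in capitals. MRPL38, MRPL42 and MRPS16 were lower and MRPS34 was higher in METTL3-KO cells, so the same words stand in promoters of genes of both directions. MRPS34 holds the ETS word 3 times, of which 1 is shown.
MRPL38, ETS, chr17:75905074-75905103, minus strand: tccaacgggcaCTTCCGGagccgggcgtct
MRPL38, YY1, chr17:75904857-75904886, minus strand: ccggagggaagATGGCGGcgccctggtggc
MRPL42, YY1, chr12:93467514-93467543, plus strand: attgaaacaagATGGCGGgttcgtggtgag
MRPS16, ETS, chr10:73252621-73252650, minus strand: cggatcatccgCTTCCGGagtcgaggtttt
MRPS34, ETS, chr16:1773187-1773216, minus strand: cctcttcctcgCTTCCGGccgcgaccgaac
MRPS34, YY1, chr16:1773106-1773135, minus strand: aggacgcggacCCGCCATggcgcggaagaa

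The 3 members with the NRF1 word were not called. They are shown because NRF1 is named for its role at nuclear genes of the respiratory chain.
MRPL17, NRF1, chr11:6683402-6683431, minus strand: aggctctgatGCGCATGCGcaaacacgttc
MRPL22, NRF1, chr5:154941039-154941068, plus strand: ccagagtattGCGCATGCGtgctgtccaga
MRPS18C, NRF1, chr4:83455912-83455941, plus strand: gaaaggtgctGCGCATGCGtattgaaaaac

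Among the 66 members not called, 62 had a 95% interval of the fold change within 1.5-fold in either direction, so a larger change was outside the interval for them. MRPL33, MRPL12, MRPL53 and MRPS24 had wider intervals. The CPM of the groups did not overlap for 22 members, 10 lower and 12 higher in METTL3-KO, beside 40.9% of all genes tested. By subunit, 6 large-subunit members were separate and lower and 5 separate and higher, against 4 and 7 in the small subunit. At an unadjusted p under 0.05 the members numbered 8 lower and 10 higher, 18 of 75 (24%), beside 37.5% of all genes tested. MRPS18B came nearest to the threshold, with a change of 0.25 (SE 0.0870, adjusted p = 0.053).

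MRPS18A, MRPS18B and MRPS18C are 3 paralogues of a single bacterial protein, and their products sit at different places in the ribosome. MRPS18A stood at 30.1 ± 1.07 CPM in WT and 30.4 ± 0.908 CPM in METTL3-KO cells (SD, n = 3), with a log2 fold change of 0.02 and a 95% interval from -0.15 to 0.19. MRPS18B stood at 84.2 ± 5.63 against 100.2 ± 9.64 CPM, and its groups did not overlap. MRPS18C was the lowest of them, at 8.35 ± 0.447 against 8.83 ± 1.71 CPM, with an interval from -0.22 to 0.39. Only the interval of MRPS18B excluded 0 before adjustment, and the difference between the paralogues' changes was not tested.

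For 3 members the symbol and the place of the protein disagree. MRPS30 and MRPS18A are built into the large subunit in structures of the human mitoribosome, and MRPS36 is a component of the 2-oxoglutarate dehydrogenase complex. MRPS30 had a log2 fold change of 0.03 (95% interval -0.13 to 0.19) and MRPS36 of 0.15 (-0.11 to 0.41), and neither was called. Assigned by structure, the large subunit had 4 lower and 1 higher of 48 and the small subunit 3 lower and 1 higher of 26, with medians of -0.03 and 0.04.

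Split by evolutionary origin, the 29 large-subunit proteins with a bacterial counterpart had 1 gene lower, MRPL10, and a median log2 fold change of -0.08, with 20 of 29 values below 0. The 17 large-subunit proteins found only in mitochondria had 3 lower and 1 higher and a median of 0.02. In the small subunit, the 16 conserved members had 2 lower and a median of 0.01, and the 13 mitochondria-specific members had 1 lower and 1 higher and a median of 0.14, with 10 of 13 values above 0. The split went by symbol, and only MRPS18C of the MRPS18 paralogues was listed as conserved. MRPS18A (0.02) and MRPS18B (0.25) therefore stand among the mitochondria-specific small-subunit members. So do MRPS30 (0.03) and MRPS36, which, like MRPS18A, are not small-subunit proteins by the placement given above. All of these values were above 0. Without replicate 3 of both groups the 4 medians were -0.23, -0.10, -0.11 and 0.05, in the same order of groups. The conserved large-subunit members then had 19 lower and 1 higher of 29, with 22.7% of all genes tested lower in that fit and 44.1% called in either direction. Without WT replicate 3 alone they had 10 lower and 1 higher of 29, beside 34.7% of all genes tested called in either direction. The other 3 groups had 7 lower and 1 higher of 17, 6 and 0 of 16, and 2 and 3 of 13 without replicate 3 of both groups.

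The 2 subunits were also compared within each sample, where library size cancels. The counts summed over large-subunit genes, divided by those summed over small-subunit genes, gave 1.68, 1.68 and 1.60 in WT samples and 1.54, 1.54 and 1.56 in METTL3-KO samples. The means were 1.65 ± 0.0463 and 1.55 ± 0.0143 (SD, n = 3), a difference of -0.10, and the groups did not overlap. Replicate 3 of each group was again the sample nearest to the other group. Leaving out the 9 genes called gave 1.78, 1.78 and 1.68 in WT and 1.63, 1.64 and 1.67 in METTL3-KO samples, so that the groups stayed just apart. Assigning MRPS30 and MRPS18A to the large subunit and leaving out MRPS36 gave 1.84 ± 0.0304 and 1.73 ± 0.0117. After a correction for the length and GC content of the transcripts the values were 1.65, 1.66 and 1.62 in WT and 1.55 in each METTL3-KO sample. The ratio is a description of these 6 samples and carries no test. Summed over both subunits, the members stood at 4177 ± 390.2 CPM in WT and 4219 ± 286.8 CPM in METTL3-KO cells, a difference smaller than either SD.

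**Figure D3:**
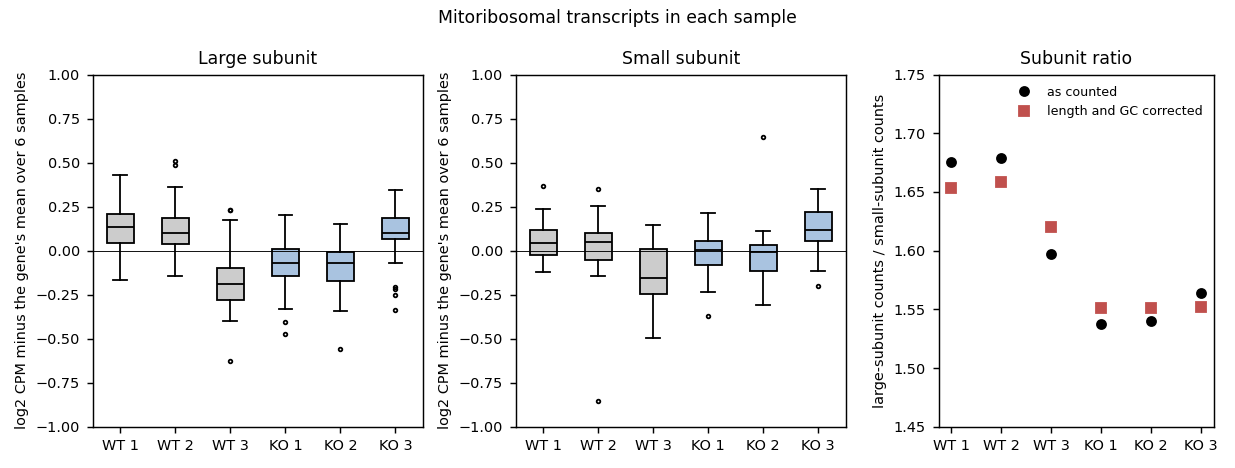
Box plots of log2 CPM minus each gene's mean over the 6 samples, for the 46 large-subunit genes (left) and 29 small-subunit genes (middle), with the median, quartiles, whiskers to 1.5 times the interquartile range and outlying genes as circles. The right panel gives the large-to-small count ratio in each sample, as counted (black) and corrected for length and GC content (red), on an axis that does not start at 0; WT replicate 3 lies low and METTL3-KO replicate 3 high in both box plots, and the ratio is 1.60 or more in WT and 1.56 or less in METTL3-KO.

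Replicate 3 moved the whole group of genes. WT replicate 3 had the lowest CPM of the WT samples in 68 of 75 members (90.7%), beside 48.5% of well-expressed genes. METTL3-KO replicate 3 had the highest CPM of its group in 67 of 75 (89.3%), beside 48.8%. The median member was 0.28 lower on the log2 scale in WT replicate 3 than the mean of WT replicates 1 and 2, and 0.17 higher in METTL3-KO replicate 3 than the mean of the other two. Both shifts bring the groups closer for members that are lower in METTL3-KO and farther apart for those that are higher.

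Without WT replicate 3, 20 members were lower and 4 higher, beside 34.7% of all genes tested. Without replicate 3 of both groups, 34 members were lower and 5 higher in METTL3-KO, which is 39 of 75 (52.0%), beside 44.1% of all genes tested. The large subunit then had 26 lower and 2 higher with a median log2 fold change of -0.20, and the small subunit 8 lower and 3 higher with a median of -0.06. The fitted change was lower than with all samples in 70 members, and in 18 of them it went from above to below 0. The members higher in that fit were MRPS34, MRPL45, MRPL19, MRPS18B and MRPS27, of which the last 3 were not called with all samples and are named after their values were seen.

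Transcript length moved with the shifts of replicate 3. Mitoribosomal transcripts are short, with a median of 1224 nt, 1143 nt for the large and 1458 nt for the small subunit, beside 3377 nt for well-expressed genes. The shift of WT replicate 3 had a Spearman correlation of 0.49 with length over the 75 members, and that of METTL3-KO replicate 3 one of -0.43, as a description over genes of the same libraries. In the 25 members under 1000 nt the median shift of WT replicate 3 was -0.35 and that of METTL3-KO replicate 3 was 0.21, and in the 16 members of 2000 nt or more they were -0.11 and 0.09. Well-expressed genes, from which the members were not taken out, shifted by -0.32 and 0.20 under 1000 nt, close to the members. At 2000 nt or more they shifted by 0.05 and -0.01, with the opposite sign to the members in both groups.

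Set beside genes of like length, the members without replicate 3 of both groups had a median log2 fold change of -0.18 under 1000 nt, where the well-expressed genes had -0.26. From 1000 to under 2000 nt both medians were -0.14, and at 2000 nt or more they were -0.07 and 0.03. The well-expressed genes numbered 587 under 1000 nt. Neither the members nor the genes of the cytosolic ribosome, described further on, were taken out of them. With all samples and a correction of each sample for length and GC content, 8 members were lower and 15 higher, 23 of 75 (30.7%), beside 34.2% of all genes tested. The large subunit then had 5 lower and 9 higher, and the small subunit 3 lower and 6 higher. Most calls were therefore lower without replicate 3 of both groups, and most were higher with the correction. The correction was fitted to every sample and does not act on replicate 3 alone. Only MRPL10, MRPL39, MRPL42 and MRPS2 (lower) and MRPS34 (higher) were called in every fit that was run.

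In WT cells the members' levels ran from 0.278 CPM (MRPS24) to 168 CPM (MRPL37), with a median of 46.6 CPM. Per 1000 nt of canonical transcript the highest were MRPL13 (119.5), MRPL20 (118.7) and MRPS34 (117.4), which did not differ beyond their spread. MRPL13 and MRPL20, both with bacterial counterparts, had log2 fold changes of -0.15 (adjusted p = 0.27) and -0.19 (adjusted p = 0.18). The lowest per 1000 nt were MRPS24 (0.42), MRPL38 (2.44) and MRPL42 (4.17). For MRPL42 the canonical transcript is 15557 nt long, so its place at the low end rests on that length, while its CPM was above the median of the members.

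Low counts went with shared exons. All 7 members under 10 CPM in WT cells, MRPS24, MRPL38, MRPL53, MRPL12, MRPS28, MRPL46 and MRPS18C, share at least 10% of their exon bases with another annotated gene, as do 28 of all 75 members. MRPL53 shares 99.4% and MRPL12, the stalk protein that binds MRPL10, 69.5%. Reads in shared bases were left out by the authors' counting where they fit more than 1 gene of the annotation it used. The overlaps here come from GENCODE v44, which may differ from that annotation. The strand setting of the authors' counting is not given in the sources used here. How far this lowered their counts was not tested. MRPS24, with 9, 4 and 7 counts in WT and 10, 11 and 8 in METTL3-KO samples, gave an interval from -0.50 to 1.42.

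Both rRNAs of the mitochondrial ribosome, which the nuclear-encoded proteins bind, were lower in METTL3-KO cells. MT-RNR1, the small-subunit rRNA, stood at 1148, 1157 and 983 CPM in WT and at 571, 620 and 618 CPM in METTL3-KO samples. MT-RNR2, the large-subunit rRNA, stood at 10336, 11009 and 9519 CPM in WT and at 5602, 6215 and 6087 CPM in METTL3-KO samples. The groups were far apart for both, with changes of -0.86 (SE 0.0792, adjusted p = 1.5e-05) and -0.79 (SE 0.0727, adjusted p = 1.5e-05), and both were lower in every fit that was run. Counts of MT-RNR1 divided by those of MT-RNR2 gave 0.106 ± 0.00407 in WT cells and 0.101 ± 0.00119 in METTL3-KO cells (SD, n = 3), and the closest samples were 0.103 (WT replicate 3) and 0.102 (METTL3-KO replicate 1). How far libraries of this kind carry over rRNA was not tested.

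With all samples, none of the 13 mitochondrial mRNAs, which these ribosomes translate, was called lower as the rRNAs were. MT-CYB, a subunit of complex III, rose from 4571 ± 259.0 to 6295 ± 74.0 CPM, a change of 0.46 (SE 0.0645, adjusted p = 0.00027). MT-ND2, a subunit of complex I, was higher by 0.24 (SE 0.0738, adjusted p = 0.034), and by 0.13 without replicate 3 of both groups. That call was lost without WT replicate 1 or any 1 METTL3-KO sample (adjusted p from 0.073 to 0.11). The other 11 were not called. Of the 15 mitochondrial transcripts, 8 were lower and 3 higher without replicate 3 of both groups, beside 44.1% of all genes tested called. The 8 include both rRNAs, and the rest are mRNAs, so in that fit some mRNAs were lower along with the rRNAs.

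**Figure D4:**
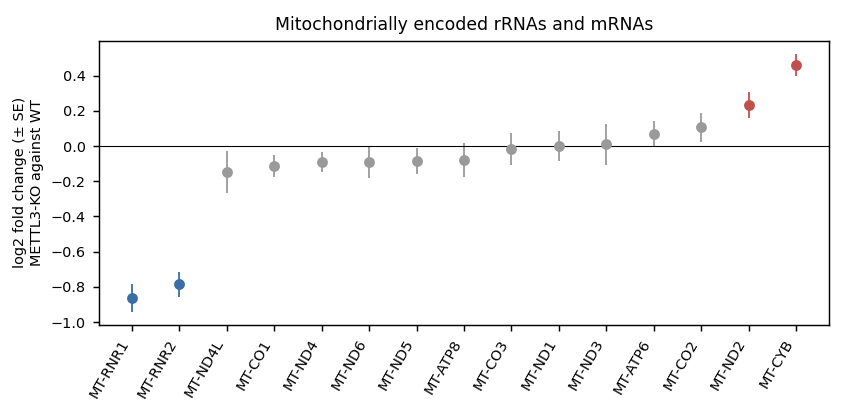
Log2 fold change of METTL3-KO against WT with bars of ± 1 SE for the rRNAs and mRNAs encoded by mitochondrial DNA, in order of their value, blue for lower and red for higher at an adjusted p under 0.05. The rRNAs MT-RNR1 (-0.86) and MT-RNR2 (-0.79) lie apart from all mRNAs, of which MT-CYB (0.46) is highest.

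Other proteins built into the mitoribosome under different names gave 1 lower and 1 higher of 7. In this list and the lists after it, counts called stand beside 26.5% of all genes tested and 40.9% of well-expressed genes. DAP3, a GTP-binding protein of the small subunit, was lower, at -0.29 (SE 0.0724, adjusted p = 0.010), and ICT1, a peptidyl-tRNA hydrolase of the large subunit, was higher by 0.33 (SE 0.101, adjusted p = 0.029), and by 0.17 without replicate 3 of both groups. The call of DAP3 was lost without WT replicate 2, METTL3-KO replicate 1 or METTL3-KO replicate 2 (adjusted p from 0.054 to 0.059), and that of ICT1 without METTL3-KO replicate 1 (0.067) or 3 (0.10). Of 27 assembly factors, 3 were lower and 1 higher, with a median log2 fold change of -0.03. RBFA, which matures the small-subunit rRNA, was at -0.49, the GTPase NOA1 at -0.46 and MTERFD2, a partner of the rRNA methyltransferase NSUN4, at -0.39, with adjusted p from 0.00090 to 0.0078. MPV17L2, the fourth, was higher by 0.31 (adjusted p = 0.040), and by 0.20 without replicate 3 of both groups. Its call was lost without any 1 sample other than WT replicate 2 (adjusted p from 0.0501 to 0.111). Without replicate 3 of both groups the assembly factors had 12 lower and 2 higher, beside 44.1% of all genes tested called in that fit.

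Translation factors of mitochondria changed in both directions, 2 lower and 3 higher of 15. C12orf65, a factor that rescues stalled mitoribosomes, stood at 32.5, 32.1 and 26.8 CPM in WT and at 18.5, 16.6 and 16.7 CPM in METTL3-KO samples. Its change of -0.82 (SE 0.0984, adjusted p = 9.8e-05) was larger in size than that of any ribosomal member, a difference that was not tested. MTRF1, a release factor, stood at 17.8, 19.1 and 18.4 CPM in WT and at 30.9, 28.1 and 29.0 CPM in METTL3-KO samples, a change of 0.67 (SE 0.0829, adjusted p = 0.00012). MTFMT, which formylates the initiator methionyl-tRNA, was higher by 0.38 (SE 0.113, adjusted p = 0.025), and by 0.20 without replicate 3 of both groups. Its call was lost without METTL3-KO replicate 1 (adjusted p = 0.059) or 3 (0.095). The elongation factor TUFM (-0.35, adjusted p = 0.0048) and the initiation factor MTIF2 (0.22, adjusted p = 0.044) complete the list of calls, and were added after their values were seen. The call of MTIF2 was lost without any 1 sample other than WT replicate 3 (adjusted p from 0.087 to 0.13).

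Of 17 mitochondrial aminoacyl-tRNA synthetases, which charge the tRNAs for these ribosomes, NARS2 was lower, at -0.49 (SE 0.0928, adjusted p = 0.0020), and LARS2 higher, at 0.28 (SE 0.0767, adjusted p = 0.018). Among 7 genes of mitochondrial transcription and RNA stability, TFAM, which packages and transcribes mitochondrial DNA, was lower, at -0.31 (SE 0.0734, adjusted p = 0.0080), and MTERF, which binds the mitochondrial DNA downstream of the rRNA genes, was higher by 0.25 (SE 0.0823, adjusted p = 0.039). The call of LARS2 was lost without WT replicate 1, METTL3-KO replicate 1 or METTL3-KO replicate 2 (adjusted p from 0.0530 to 0.0735), and that of MTERF without any 1 sample other than WT replicate 3 (adjusted p from 0.076 to 0.12). The medians of the 2 lists were -0.03 and -0.10.

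The nuclear regulators of mitochondrial genes had 4 higher and 0 lower of 9, beside 26.5% of all genes tested and 40.9% of well-expressed genes called. GABPB1, the partner subunit of the ETS factor GABPA, rose from 30.8 ± 1.30 to 43.1 ± 1.30 CPM (log2 fold change 0.49, SE 0.0763, adjusted p = 0.00060), while GABPA was at -0.16 (adjusted p = 0.18). YY1 rose from 134.8 ± 3.62 to 160.6 ± 3.22 CPM (0.25, adjusted p = 0.015). The coactivator PPARGC1B rose by 0.67 (adjusted p = 0.0031) and the nuclear receptor ESRRA by 0.31 (adjusted p = 0.037), or by 0.14 without replicate 3 of both groups. The call of YY1 was lost without WT replicate 1 (adjusted p = 0.066) or METTL3-KO replicate 1 (0.065), and that of ESRRA without any 1 METTL3-KO sample (adjusted p from 0.060 to 0.12). NRF1 stood at -0.13 (adjusted p = 0.37), MYC at -0.17 (adjusted p = 0.099), PPRC1 at 0.21 (adjusted p = 0.051) and PPARGC1A, with 15 to 45 counts per sample, at 0.71 (adjusted p = 0.070). At an unadjusted p under 0.05 there were 6 higher and 1 lower, beside 37.5% of all genes tested.

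For scale, the 83 genes of the cytosolic ribosome had 21 lower and 2 higher, with a median log2 fold change of -0.27 and 76 values below 0. In that fit 26.5% of all genes tested were called, 13.2% lower and 13.3% higher. Without replicate 3 of both groups the cytosolic genes had 71 lower and 0 higher with a median of -0.46, beside 44.1% of all genes tested called. With the correction for length and GC content they had 51 lower and 3 higher with a median of -0.23, beside 34.2%. The medians of the mitochondrial members in the same 3 fits were 0.00, -0.12 and 0.04. The difference between the 2 ribosomes was not tested.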

How the data were processed

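RNA-seq read counts of HCT116 cells, 3 WT and 3 METTL3-KO samples, were analysed. Paired-end reads had been mapped by the authors with TopHat 2.0.11 (hg19, transcript index from Ensembl GRCh37), and read pairs counted with htseq-count, union mode. What they deposited are whole, unscaled counts for each gene symbol. Between 28.2% and 30.7% of the entries counted were in htseq-count's unassigned classes, which were left out. The deposited files name the groups NC and SiM3 and number WT samples differently from the labels. The labels were used.

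After the filter of the authors' methods (a total of at least 5 counts in either condition) 22452 genes were tested. METTL3-KO was compared with WT by edgeR's quasi-likelihood test (edgeR 4.0.16, R 4.3.3), with TMM normalization, two-sided, with Benjamini-Hochberg adjustment over all tested genes. CPM are counts over the TMM-scaled library size. The SE of a log2 fold change was taken from its size and F. Positions, length, GC content and exon overlap came from GENCODE v44 lifted to GRCh37, which matched all 75 members. Promoters came from RefSeq (GRCh38.p14). The test was also tried on simulated data with known changes, drawn with the same dispersion for every gene.

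Alternatives were DESeq2 1.42.0, RLE normalization, filterByExpr, no filter, the replicate number as a block, each sample left out, replicate 3 of both groups left out, and splines (5 degrees of freedom) that correct for length and GC content. The limit on exon overlap, the corrected ratio and the ratio without called genes were added after the data were seen.

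The members and lists were chosen with earlier results of these data known. The genes named are METTL3, every member called, the 3 highest and 3 lowest members per transcript length in WT, those nearest the count minimum, the MRPS18 paralogues, MRPS30 and MRPS36, up to 3 called genes per list and all nuclear regulators. MPV17L2, TUFM and MTIF2 were named beyond the limit of 3 per list. Intervals cover the spread between samples.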

Additional observations from a re-analysis of the deposited data

How the results depend on the processing

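Of the 33 genes named as changed, under 14 alternatives each, 0 reversed direction, 68 of 462 values were no longer past the threshold, and 17 genes were called in all. MRPL23-AS1, described below, is not among the 33. With the replicate number as a block, 3529 genes in all were called against 5945, and 5 members (MRPL10, MRPL39, MRPL42, MRPS2, MRPS34), 3 large and 2 small. Deviations from the group mean of samples with the same number correlated at -0.58, -0.39 and -0.78, and no sample correlated best with its own number. WT replicate 3 correlated with METTL3-KO replicates 1 and 2 (0.66 and 0.51), and METTL3-KO replicate 3 with WT replicates 1 and 2 (0.72 and 0.63). Deviations of 3 samples from their mean sum to 0, so these values largely restate the opposite shifts of replicate 3. They cannot show whether samples of the same number were prepared together. The sources used here do not say how replicate 3 of either group was prepared. With no filter beyond 1 count 17 members were called (10 large, 7 small), 22.7% beside 22.3% of all genes. With the length and GC correction 23 were called (14 large, 9 small), and with the correction and the replicate block 19 (10 large, 9 small), 25.3% beside 26.6% of all genes. DESeq2 called 9 (MRPS18B in place of MRPL38), RLE normalization 10 and filterByExpr 12.

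Leaving out samples gave 6 to 39 members (3 to 28 large, 3 to 11 small) and up to 9378 genes in all, with medians from -0.20 upwards in the large subunit; both highest counts are without replicate 3 of both groups, and without WT replicate 3 alone there were 24 (17 large, 7 small). Without WT replicate 1 or without METTL3-KO replicate 1 or 2 the count was 6 each, and 3 of the large subunit. Among small-subunit members with under 10% exon overlap 0 were called by edgeR (4 at an unadjusted p under 0.05), with a median of 0.13. Depth limits most the members with few counts, such as MRPS24 with at most 11 per sample (SE 0.439).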

Other observations

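Several loci next to or derived from the members were counted apart. MRPL23-AS1, antisense to MRPL23, was counted 77, 78 and 47 times in WT and 26, 34 and 44 times in METTL3-KO samples, a change of -1.01 on the log2 scale (SE 0.271, adjusted p = 0.016 by edgeR). It was chosen after its values were seen, and since the strand setting of the counting is not given, its reads and those of MRPL23 cannot be told apart where the genes overlap. The groups came closest in replicate 3, at 47 and 44 counts, and its change under the alternatives is not given here. The pseudogenes MRPL45P2, MRPL3P1 and MRPS31P5 were not called, at log2 fold changes of 0.20 (adjusted p = 0.48), 0.11 (adjusted p = 0.77) and -0.56 (adjusted p = 0.22). The read-through gene URGCP-MRPS24 had 0 counts in every sample, beside 4 to 11 counts of MRPS24, whose exons it shares. Of the 75 members, 32 have at least 1 annotated pseudogene named after them, and reads that aligned to more than 1 place had been left out of the counts.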
